A study of Mus musculus with 10 samples.

Results

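The microglia transcriptome of mice given only the vehicle was described from the 5 libraries labelled Vehicle 1 to Vehicle 5, of the 10 libraries in the series, with no comparison to the drug-treated mice. The mice were male (Vehicle 1 and Vehicle 2) and female (Vehicle 3, Vehicle 4 and Vehicle 5) C57BL/6J animals, 8 to 12 weeks old per the methods of the study, with no transgene or deletion. All 5 were gavaged for 8 days with the carrier, a solution of Tween 80 and hydroxymethyl propyl-cellulose. After perfusion, whole brains were digested with Accutase, microglia were enriched on a Percoll gradient and selected with CD11b magnetic beads, and full-length cDNA was made with SMART-Seq v4. The RNA was extracted from all CD11b-selected cells of a brain, so each value is a mean over a bulk preparation that may hold other cells.

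Microglia are the resident macrophages of the brain parenchyma. They survey the tissue with motile processes, take up debris and synapses, and are supplied with survival signals through the receptor CSF1R. Their RNA is known for a high content of complement C1q, lysosomal protease and surface receptor transcripts, and CD11b, the integrin used for the selection, is also carried by monocytes and neutrophils.

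Each library held 12550418 to 20854218 fragments assigned to genes (median 16325210), and 29.7 to 43.3% of its counting records were assigned. The level of a gene is given as CPM, its fragments per 1000000 assigned fragments, which is a share of the library and rises with the length of the transcript, or as TPM, which divides by the exonic length of the gene and allows genes to be set against each other. Values are means ± SD over the 5 mice unless stated. A gene was taken as detected above 1 CPM in at least 3 of the 5 libraries, and 24809 of the 46152 genes counted were detected. In the smallest library, 3 fragments amount to 0.239 CPM, which is the level that a count of 0 still allows there, for counting error only.

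Vehicle 5 stood apart from the other 4 libraries. Among the 7288 genes of mean CPM at least 20, 3453 to 3556 genes differed over 2-fold between Vehicle 5 and any other library, which is 47.4 to 48.8% of them. Vehicle 3 and Vehicle 4 differed over 2-fold in 22 genes (0.302%), Vehicle 1 differed from them in 163 and 200 genes, and Vehicle 2 differed from Vehicle 1, Vehicle 3 and Vehicle 4 in 581, 586 and 648 genes. Across these genes, which are not independent replicates, Spearman's rho was 0.98 between Vehicle 3 and Vehicle 4 and 0.33 to 0.39 between Vehicle 5 and the others. The label of sex held in all 5 libraries: the Y-linked genes Eif2s3y and Ddx3y were at 33.3 to 49.0 CPM and 21.9 to 23.3 CPM in the males and at 0 counts in the 3 females, and Xist, the RNA that silences an X chromosome, was at 1.47 and 2.17 CPM in the males and 15.7 to 23.1 CPM in the females. Values are therefore given by library, or as a mean with the mean without Vehicle 5 (SD, n = 4) beside it.

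A small number of genes made up much of the RNA. The 20 genes of highest mean CPM held 19.98 ± 4.90% of all counts, with 20.9% in Vehicle 1, 22.0% in Vehicle 2, 23.1% in Vehicle 3, 22.6% in Vehicle 4 and 11.3% in Vehicle 5. Without Vehicle 5, the 20 most abundant genes held 23.0 ± 1.05% (SD, n = 4). Taken from the top of its own ranking, each of Vehicle 1 to 4 needed 290 to 329 genes to reach 50% of its counts, and Vehicle 5 needed 986. Per unit of length the RNA was more concentrated, since the 20 genes of highest mean TPM held 29.0 ± 9.34% of all TPM. The own top 20 genes by TPM held 31.8 to 35.4% in Vehicle 1 to 4 and 15.7% in Vehicle 5.

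**Figure D1:**
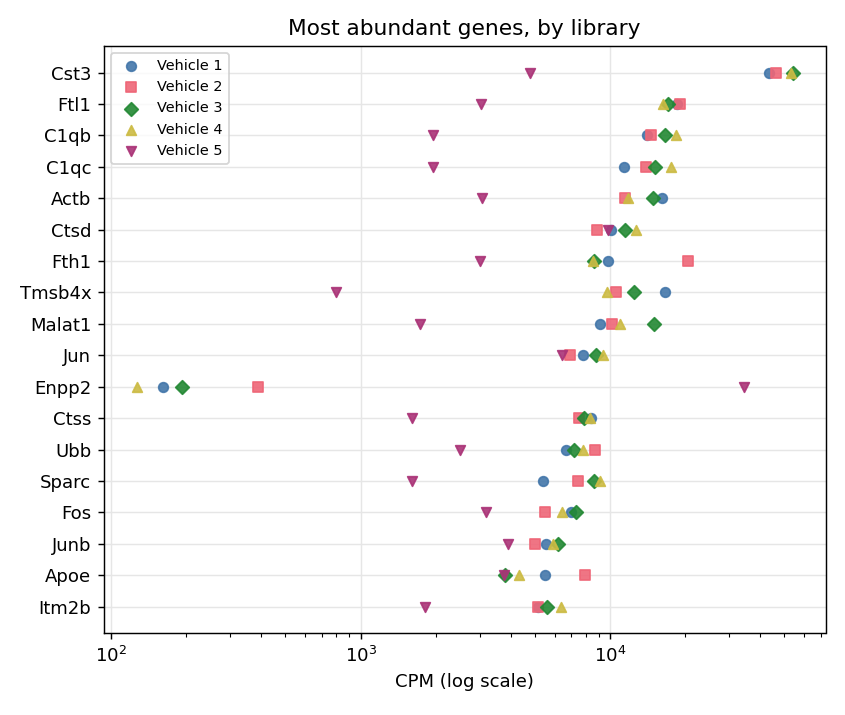
CPM on a log scale for 18 of the 20 genes of highest mean CPM, ordered by that mean, with 1 point for each Vehicle library. The points of Vehicle 1 to 4 lie close together for most genes, Vehicle 5 lies to the left for genes such as Cst3 and Tmsb4x and at the same place for Ctsd and Jun, and Enpp2 is high in Vehicle 5 alone.

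Cst3, which encodes the secreted cysteine protease inhibitor cystatin C, took the largest share of counts. It was at 43379 CPM in Vehicle 1, 46288 in Vehicle 2, 53952 in Vehicle 3, 53224 in Vehicle 4 and 4778 in Vehicle 5. It ranked at the top of 4 libraries and at position 5 in Vehicle 5, where its level was 0.0960 of the median of the others. Its mean share was 4.03% of all counts, and on the TPM scale it stood at 90513 ± 43778 (109284 ± 14365 without Vehicle 5). Cst3 lies on chromosome 2 at 148871722 to 148875512 (GRCm38.p6), with an exonic length of 796 bases.

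The C1q genes, whose products form the recognition molecule of the classical complement pathway, followed. C1qb was at 14085, 14634, 16585, 18370 and 1944 CPM in Vehicle 1 to 5, and C1qc at 11343, 13893, 15201, 17585 and 1954 CPM. The fragments of C1qb and C1qc stayed in nearly the same ratio in every library, 1.24, 1.05, 1.09, 1.04 and 0.995, while both were about 0.13 of the median of the others in Vehicle 5 (0.125 and 0.134). C1qa was lower, at 4498 ± 2259 CPM (5403 ± 1161 without Vehicle 5). Per length the order was C1qb with 21298 ± 9921 TPM (25491 ± 3745 without Vehicle 5), C1qc with 19119 ± 9130 (22785 ± 4643) and C1qa with 7486 ± 3511 (8835 ± 2074). This order held within each of the 5 libraries, with C1qb and C1qc nearest to each other in Vehicle 5, at 4526 and 4456 TPM. The 3 genes are neighbours on chromosome 4, with C1qb at 136880126 to 136886200, C1qc at 136889801 to 136892936 and C1qa at 136895916 to 136898844.

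Sequence upstream of 2 pairs of neighbouring genes is shown, since C1qb and C1qc moved together across the libraries, and since S100a8 and S100a9, neutrophil genes given further on, did so too. Each run is the 250 bases before a RefSeq transcript start on GRCm38.p6, 5′ to 3′ on the strand of the gene. Capitals mark GAGGAAGT, a form of the site bound by PU.1, or TATAAA, the element bound by TBP, each searched on both strands. Only exact matches were counted, and other forms of these sites were not searched.
C1qb: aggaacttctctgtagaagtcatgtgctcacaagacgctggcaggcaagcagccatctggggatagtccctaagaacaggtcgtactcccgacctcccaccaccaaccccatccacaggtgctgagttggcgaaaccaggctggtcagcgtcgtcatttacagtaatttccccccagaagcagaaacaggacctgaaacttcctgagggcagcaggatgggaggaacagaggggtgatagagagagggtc
C1qc: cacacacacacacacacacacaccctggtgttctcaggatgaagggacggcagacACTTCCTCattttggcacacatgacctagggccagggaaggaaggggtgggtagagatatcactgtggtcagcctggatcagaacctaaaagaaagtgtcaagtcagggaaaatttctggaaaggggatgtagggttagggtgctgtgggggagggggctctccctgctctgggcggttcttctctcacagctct
S100a8: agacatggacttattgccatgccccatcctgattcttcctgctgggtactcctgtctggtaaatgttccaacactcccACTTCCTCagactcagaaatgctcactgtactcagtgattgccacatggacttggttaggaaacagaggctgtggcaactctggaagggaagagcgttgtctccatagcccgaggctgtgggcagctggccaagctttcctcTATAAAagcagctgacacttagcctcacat
S100a9: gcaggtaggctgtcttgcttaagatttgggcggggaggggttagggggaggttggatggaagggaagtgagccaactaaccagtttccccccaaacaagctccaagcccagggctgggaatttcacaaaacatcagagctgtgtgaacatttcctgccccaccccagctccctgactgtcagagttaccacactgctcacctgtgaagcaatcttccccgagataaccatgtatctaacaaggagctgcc
The regions are chr4:136886201-136886450 and chr4:136892915-136893164, both on the minus strand, chr3:90668821-90669070 on the plus strand and chr3:90695722-90695971 on the minus strand. GAGGAAGT on the opposite strand began 195 bases before the start of C1qc and 172 before that of S100a8, and TATAAA lay 30 bases before the start of S100a8, while C1qb and S100a9 held neither in these windows. Of the upstream sequences of 27025 genes, 2.44% held GAGGAAGT and 12.97% held TATAAA. Among the 100 genes of highest mean CPM, 72 had a sequence, and 3 (4.17%) and 10 (13.9%) of them held these motifs. TGACTCA, the AP-1 element, was searched too, was in none of the 4 windows, and was in 4.43% of all sequences and 5.56% of those 72. The motifs found did not overlap, and a match is a description of letters, not of binding.

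Genes of iron storage and the actin system were among the leading genes too, and Ftl1 stood above C1qb in every library but Vehicle 4. Ftl1, the ferritin light chain, was at 18488, 19032, 17004, 16284 and 3039 CPM in Vehicle 1 to 5. Fth1, the heavy chain with the ferroxidase activity, was at 9849, 20612, 8583, 8564 and 3005 CPM, so that Vehicle 2 was the highest library and Vehicle 5 the lowest. Actb, cytoplasmic beta-actin, was at 11459 ± 5095 CPM (13557 ± 2292 without Vehicle 5) and Tmsb4x, which binds actin monomers, at 10037 ± 5804 CPM (12347 ± 3055 without Vehicle 5). In Vehicle 5 Tmsb4x fell to position 95 of the ranking, against positions 3 to 8 in the other libraries. These genes have processed pseudogenes elsewhere in the genome, and fragments that matched more than 1 place were not counted, so their values may be too low by an amount that was not tested.

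The lysosomal proteases were abundant and among them the spread was small. The 23 genes with a cathepsin symbol summed to 26987 ± 5848 CPM (29404 ± 2579 without Vehicle 5), or 2.70% of all counts, and 20 of the 23 were detected. Ctsd, an aspartic protease that acts at the low pH of the lysosome, was at 10094, 8894, 11465, 12658 and 9803 CPM, so Vehicle 5 lay within the range of the others. Ctss, the cysteine protease that trims the invariant chain in antigen-presenting cells, was at 8396, 7512, 7889, 8272 and 1613 CPM, with a spread of 0.05 (SD of log2 CPM) over Vehicle 1 to 4. Ctsb, a cysteine protease of broad specificity, was at 2647 ± 251 CPM (2738 ± 168 without Vehicle 5). Of the 10 cathepsins of mean CPM at least 20, 5 were stable over the 5 libraries and all 10 without Vehicle 5, by the limits given further on, beside 18.5 and 66.7% of all genes above that level.

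Early response genes, which tissue handling and cell stimulation raise within minutes, were among the most abundant transcripts in these mice. The 21 genes of this list summed to 54959, 41962, 54619, 50135 and 29274 CPM in Vehicle 1 to 5. Jun, a subunit of the AP-1 transcription factor, was at 7754, 6924, 8803, 9389 and 6439.6 CPM. Fos, its usual partner, was at 7002, 5506, 7285, 6407 and 3173 CPM, and Junb, another Jun family member, at 5301 ± 905 CPM (5651 ± 524 without Vehicle 5). The brains were digested for this preparation, no library was made from undigested tissue, and whether the level was reached before or during the digestion was not tested. Of the 18 early response genes of mean CPM at least 20, 3 were variable and 4 stable over all 5 libraries, beside 15.2 and 18.5% of all genes. Without Vehicle 5 none were variable and 9 stable, beside 3.20 and 66.7% of all genes.

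The other genes of the leading 20 covered several functions. Malat1, a nuclear long noncoding RNA, was at 9114, 10212, 15048, 10986 and 1730.4 CPM and was alone 0.942% of all counts. Ubb, a polyubiquitin gene, was at 6572 ± 2393 CPM (7589.8 ± 856 without Vehicle 5), and Sparc, a secreted matrix-binding protein, at 6421 ± 3055 (7625 ± 1669). Apoe, a lipid carrier, was at 5052 ± 1737 CPM (5378 ± 1821 without Vehicle 5) and Itm2b, a transmembrane protein of the secretory pathway, at 4809.8 ± 1741 (5558 ± 556). Enpp2, which encodes the lysophospholipase autotaxin, entered the list through Vehicle 5 alone, with 161, 386, 193 and 127 CPM in Vehicle 1 to 4 and 34463 in Vehicle 5, where it was the most abundant gene.

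Ranking by TPM kept 14 of the 20 genes. The genes that entered had short transcripts: C1qa, the neutrophil alarmin S100a9, the adaptor Tyrobp, B2m, the light chain of major histocompatibility class I, Fcer1g, the signalling chain of Fc receptors, and the chemokine Ccl4. S100a9 stood far apart in Vehicle 1, at 7738 CPM, which raised its mean, and its values by library are given further on. Tyrobp was at 6497 ± 3576 TPM (7937 ± 1795 without Vehicle 5), B2m at 6458 ± 2802 (7612 ± 1258), Fcer1g at 5296 ± 2757 (6450.1 ± 1117) and Ccl4 at 5262 ± 2959 (6369.5 ± 1872). Between the libraries, 15 genes were in the top 20 by CPM of each of Vehicle 1 to 4, and 8 of them were also in the top 20 of Vehicle 5. There were 3 genes in the top 20 of Vehicle 5 that were outside the top 100 of every other library, and they were chosen for naming after their values were seen: Enpp2, Slc22a17, a transporter-like receptor for lipocalin, at 3319 CPM against 71.7 to 108 elsewhere, and Clu, which encodes the chaperone clusterin, at 3062 CPM against 29.7 to 559.

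Markers of microglia ranked high in every library, and their summed share was lowest in Vehicle 5. The list of 28 microglia markers summed to 122471, 125937, 151046 and 154876 CPM in Vehicle 1 to 4 and to 34129.7 in Vehicle 5. Of the 28, 26 were detected and 2, Trem2 and Aif1, had 0 counts in every library, as described further on. The median rank of the 26 detected markers among all genes was 54.5, 58.0, 42.5, 44.0 and 78.5 in Vehicle 1 to 5, and 14 of them were still in the top 100 of Vehicle 5. Since these are bulk preparations, fewer cells of a type and less RNA per cell cannot be told apart.

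The markers did not move as 1 block in Vehicle 5. Csf1r, the receptor of colony-stimulating factor 1, was at 2407, 1579, 2512, 2096 and 4544 CPM, so Vehicle 5 was the highest library. Itgam, which encodes CD11b itself, was at 223, 125, 228, 165 and 481 CPM, again highest in Vehicle 5. Tmem119, a surface protein of microglia, was at 2942, 2859, 3895, 4146 and 2314 CPM, and Cx3cr1, the fractalkine receptor, was at 2338, 1863, 2969, 2719 and 1931 CPM, with Vehicle 2 the lowest. P2ry12, the ADP receptor that steers microglial processes, was at 3268, 4156, 4624, 4786 and 1265 CPM, and Siglech, a sialic acid-binding lectin, at 1764, 1551, 2066, 2055 and 409. Tyrobp, the adaptor through which several of these receptors signal, was at 3413, 1963, 2788, 2222 and 165 CPM, which puts Vehicle 5 at 0.0657 of the median of the others. The lineage transcription factor Spi1 (PU.1) was at 0.230 of that median. Among the 26 detected markers, Spearman's rho between exonic length and the deviation of Vehicle 5 from the median library was 0.65, a description across genes of 1 library, and Tyrobp, with 575 bases, is among the shortest.

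The other microglia markers ranged from abundant receptors to low transcription factors. Selplg, which encodes the selectin ligand PSGL-1, was at 4757 ± 1326 CPM (5184 ± 1064 without Vehicle 5) and Fcrls, an Fc receptor-like protein, at 1764 ± 503 (1961 ± 277). Gpr34, a lysophospholipid receptor, was at 984 ± 407 CPM (1156 ± 155 without Vehicle 5) and P2ry13, a relative of P2ry12, at 812 ± 207 (891 ± 128). Olfml3, a secreted protein, was at 652 ± 229 CPM (735 ± 156 without Vehicle 5) and Slc2a5, a fructose transporter, at 40.1 ± 14.0 (43.9 ± 12.8). Among transcription factors, Irf8, needed for myeloid development, was at 625, 504, 653, 729 and 456 CPM, Mef2c at 207 ± 79.9 (239 ± 36.7 without Vehicle 5) and Sall1, a regulator of microglial identity, at 104, 74.1, 142, 108 and 162 CPM. Tgfbr1, a receptor for the transforming growth factor that maintains these cells, was at 203 ± 52.5 CPM (185 ± 38.5 without Vehicle 5). In Vehicle 5, Itgam, Csf1r, Sall1 and Tgfbr1 stood at 2.48, 2.02, 1.53 and 1.44 times the median of the others, and the other 22 detected markers were below 1 time that median. Per length, Cst3, C1qb, C1qc and Ctss led the list, with Ctss at 8389 ± 3114 TPM (9770.1 ± 468 without Vehicle 5), and Slc2a5 closed it at 12.1 ± 3.57 (12.6 ± 3.96).

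Markers of several other cell types stood far apart in 1 library. Choroid plexus markers were highest in Vehicle 5: the 9 markers of the epithelium that secretes cerebrospinal fluid summed to 1481, 2678, 1710.2, 1239.6 and 25106 CPM in Vehicle 1 to 5, which is 15.7 times the median of the others. Clic6, a chloride channel protein of this epithelium, was at 6.15, 9.25, 6.29, 6.59 and 1259.9 CPM, and Kcnj13, its inward rectifier potassium channel, at 19.6, 50.4, 26.6, 30.4 and 1025 CPM. Of the 9 markers, 8 were detected, and Kl, the other one, was at or below 0.144 CPM in every library and is among the genes listed on more than 1 sequence, described further on. The ependymal list was at 288 CPM in Vehicle 5 and 19.7 to 38.0 in the others. Foxj1, Rsph1 and Tekt1 held 105, 84.0 and 59.0 CPM of it, while Rarres2 and Ccdc153 were lowest in Vehicle 5. The endothelial list was at 701 against 137 to 170. Slco1c1 held 462 CPM of it and Slc2a1 127. Pecam1, Cdh5 and Tek were also highest in Vehicle 5, at 33.4 CPM or less, while Flt1 (7.34) and Esam (2.59) were lowest there. The lymphocyte list was at 472 against 125 to 159, and the erythroid list at 1831 against 52.3 to 127. Alas2, the red cell enzyme of haem synthesis, was at or below 1.89 CPM in Vehicle 1 to 4 and 213 in Vehicle 5. The part of these cell types in the low microglia markers of Vehicle 5 was not tested.

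**Figure D2:**
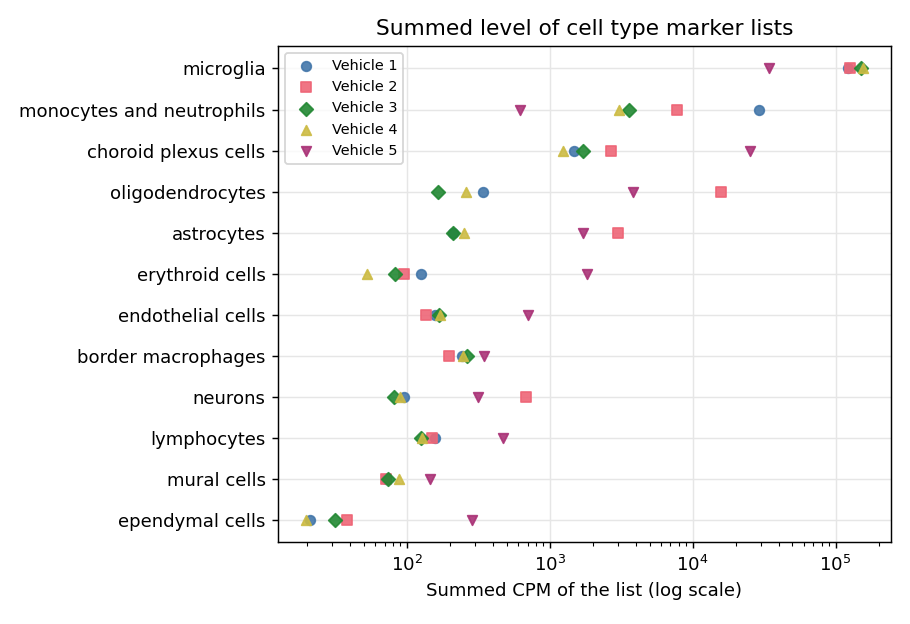
Summed CPM on a log scale of the 12 lists of cell type markers, with 1 point for each Vehicle library. Vehicle 5 has the lowest microglia sum (34129.7 CPM) and the highest choroid plexus sum (25106), Vehicle 2 the highest oligodendrocyte, astrocyte and neuron sums, and Vehicle 1 the highest sum of monocytes and neutrophils (29263).

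Markers of neural cells were highest in Vehicle 2. The 12 oligodendrocyte markers summed to 341, 15756, 166, 259.8 and 3824 CPM in Vehicle 1 to 5, so Vehicle 2 was 52.4 times the median of the others. Mbp, myelin basic protein, was at 147, 12816, 33.5, 99.3 and 2141 CPM, and Mobp, another myelin protein, at 38.7, 2263, 9.32, 19.6 and 556 CPM. The astrocyte list was at 2991 CPM in Vehicle 2 and 1706 in Vehicle 5 against 210 to 253 in the others, and the neuron list at 686 and 316 against 81.3 to 96.1. The mitochondrial ribosomal RNA mt-Rnr2 was at 683, 3365, 533, 500.1 and 844 CPM. The 108 nuclear genes with an oxidative phosphorylation symbol, pseudogenes and assembly factors among them, summed to 14500 CPM in Vehicle 2 against 7909 to 10522. Of these, Ndufs3, Uqcrc1, Ndufa7 and Atp5a1, listed on more than 1 sequence as described further on, were at 0 in every library. The part of neural cells in these values was not tested.

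Markers of neutrophils were highest in Vehicle 1. The 14 markers of monocytes and neutrophils summed to 29263, 7721, 3580.0, 3073 and 624 CPM in Vehicle 1 to 5, which is 2.93% of all counts in Vehicle 1 and 0.0624% in Vehicle 5. S100a9, a subunit of calprotectin, was at 7738, 1384, 669, 506 and 29.0 CPM, and S100a8, its partner, at 4138, 705, 418, 297 and 22.7 CPM. The upstream sequences of S100a8 and S100a9 are given above as a pair. Ngp, a granule protein of maturing neutrophils, was at 7706, 2993, 1100.3, 1039 and 174 CPM. S100a9, S100a8 and Ngp kept the same order of libraries. Ccr2, the chemokine receptor of inflammatory monocytes, was at 12.4 to 26.4 CPM, so the list was made up mainly of granule and calprotectin genes. The list of border macrophages, which line the meninges and vessels, was low in every library, at 198 to 345 CPM. Its member Pf4, at or below 0.223 CPM, is among the genes listed on more than 1 sequence, described further on. Stab1 held 255 CPM of the sum in Vehicle 5, where Mrc1 was lowest at 6.19 CPM.

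By class, protein-coding genes took 94.6 ± 1.11% of the counts and long noncoding RNA genes 4.01 ± 1.02%. Vehicle 5 was at 96.4% and 2.34%, outside the range of the other libraries for both (93.7 to 94.9% and 3.80 to 4.90%). Pseudogenes took 0.747 ± 0.157% and ribosomal RNA genes 0.130 ± 0.139%, with 0.377% in Vehicle 2 and 0.0528 to 0.0905% in the others. Of 21869 protein-coding genes, 16737 were detected, of 12713 long noncoding RNA genes 6053, and of 6053 pseudogenes 1515. Next to Malat1, the long noncoding RNAs of highest mean CPM were 2810013P06Rik and Gm38543, both at 194 CPM with SDs of 90.5 and 114 (232 ± 37.7 and 233 ± 83.1 without Vehicle 5). Gm38543 lies on chromosome 12 at 85452051 to 85457148, and the counting used no strand, so reads of a gene that overlaps another cannot be assigned to one of them. The 92 genes with a cytosolic ribosomal protein symbol, pseudogenes among them, summed to 8129.5 ± 2510.3 CPM (9196 ± 905 without Vehicle 5), with 3864 in Vehicle 5. Rpl13 was the highest at 451 CPM (526 without Vehicle 5). Rps10 and Rps18 were at 0 in every library and Rps28 at or below 0.0699 CPM, all listed on more than 1 sequence as described further on. Fragments that matched more than 1 place were not counted, so the sum may be too low by an amount that was not tested. The 103 histone genes summed to 6608 to 7131 CPM in Vehicle 1 to 4 and to 2736 in Vehicle 5. Olfactory receptor genes were close to silent, since 77 of 1147 were detected and they summed to 476 ± 57.5 CPM (481 ± 65.6 without Vehicle 5).

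State lists were low beside the early response genes. The 15 genes of the disease-associated microglia list summed to 8258 ± 2458 CPM (9100.1 ± 1823 without Vehicle 5), of which Apoe was 5052, the tetraspanins Cd9 and Cd63 1434 and 849.5 (1681 and 959 without Vehicle 5), and Clec7a and Itgax, which mark the full state, 28.1 ± 19.1 (34.5 ± 14.7 without Vehicle 5) and 9.09 ± 6.35 (6.32 ± 1.57). The 16 proliferation genes summed to 366 ± 125 CPM (316 ± 61.0 without Vehicle 5) and the 12 interferon response genes to 633 ± 312 (707 ± 305). The interferon list was highest in Vehicle 1, at 1156 CPM against 337 to 639, with Ifitm3 at 629 CPM in that library. Ifitm3 is also known in other myeloid cells, and Vehicle 1 was the library with the highest neutrophil markers, whose part in this value was not tested.

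Several genes known from microglia were listed at 0 counts in all 5 libraries. Trem2, the lipid receptor of microglia, Aif1, which encodes IBA1, Tnf, the class II genes H2-Ab1 and H2-Eb1, the class I gene H2-D1, the endothelial tight junction gene Cldn5 and the ribosomal protein gene Rps18 had no fragment in any library, whereas their partners Tyrobp, Cd74 at 1610.3 ± 421 CPM (1586 ± 482 without Vehicle 5) and B2m at 3081 ± 1459 CPM (3697 ± 552) were abundant. Each of the 8 genes at 0 was listed by the annotation on more than 1 sequence of the assembly, a chromosome and 1 or more alternate or patch scaffolds, and fragments that align to more than 1 place were not counted. Of 1118 protein-coding genes listed on more than 1 sequence, 327 (29.2%) were at 0 in all libraries, and 129 of the 327 were on chromosome 17, which carries the major histocompatibility complex. Of 20751 protein-coding genes listed on 1 sequence, 424 (2.04%) were at 0. Whether RNA of such a gene was present cannot be read from these counts, and Jund, listed on more than 1 sequence, at or below 0.112 CPM beside Jun and Junb, is of the same kind.

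Between libraries, most genes moved little once Vehicle 5 was left out. The spread of a gene was taken as the SD of its log2 CPM with TMM factors over the 5 libraries, and genes over 1 were called variable and genes under 0.25 stable. The median SD of the 7288 genes was 0.49 over the 5 libraries and 0.19 without Vehicle 5 (6529 genes). There were 1110 variable genes (15.2%) and 1348 stable genes (18.5%) over all 5, and 209 (3.20%) and 4356 (66.7%) without Vehicle 5. Of the variable genes, 188 were variable under both, and of the stable genes 1292 were. Among the 1110 variable genes, the library farthest from the median was Vehicle 5 in 971, as the highest in 783 and the lowest in 188, Vehicle 2 as the highest in 103 and Vehicle 1 as the highest in 32.

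**Figure D3:**
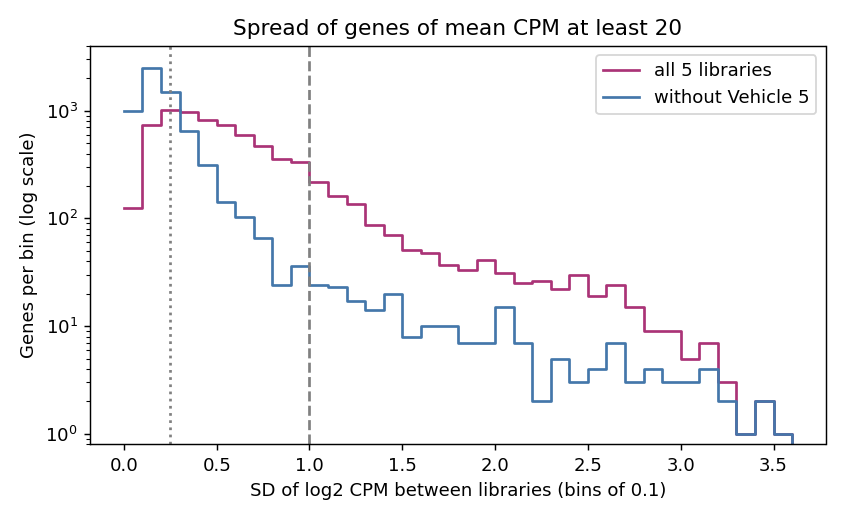
Number of genes of mean CPM at least 20 (log scale) in bins of 0.1 of the SD of log2 CPM between libraries, over all 5 Vehicle libraries and without Vehicle 5. The dotted line marks 0.25 and the dashed line 1, and leaving out Vehicle 5 moves the median from 0.49 to 0.19 while a tail of genes above 2 remains.

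Of the genes of mean CPM at least 100, Rbm5, a splicing regulator, had the lowest SD, 0.04, at 157, 143, 159, 166 and 154 CPM. It was followed by Snx17, a sorting nexin, with 209 to 254 CPM, Ppp4c, a protein phosphatase, with 175 to 203, Grb2, the adaptor that links receptor kinases to Ras, with 128 to 145, and Herpud1, Arf1, Fuca2, Map2k1, Nop56 and Jpt1, with SDs of 0.06 to 0.07. In each of these genes Vehicle 5 lay at 0.875 to 1.01 of the median of the other libraries. These 10 kept an SD under 0.25 without any single library, but none did with upper quartile factors, which scale Vehicle 5 by 1.41 in place of 0.950 and left 352 of the 1348 stable genes under the limit. The set of stable genes over the 5 libraries thus depended on how Vehicle 5 was scaled.

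Without Vehicle 5 the order of stable genes was another. The genes named here were chosen after their values were seen. Rps3, a protein of the small ribosomal subunit, had the lowest SD of log2, 0.01, at 298, 268, 298 and 302 CPM in Vehicle 1 to 4, and was at 111 in Vehicle 5. Nucb1, a calcium-binding protein of the Golgi, was at 253, 225, 256 and 262 CPM and at 523 in Vehicle 5, and Anxa3, an annexin, at 417, 400, 425 and 439 CPM and at 155 in Vehicle 5. Of the 10 most stable genes over all 5 libraries, Rbm5 had an SD of 0.02 without Vehicle 5 and the others had 0.05 to 0.08.

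The genes of highest spread were high in Vehicle 2 or Vehicle 5, and several are known from other cell types. The 13 most variable genes reported here, of mean CPM at least 100, had SDs of 3.05 to 3.59. Highest in Vehicle 2 were Mbp, Mobp, Plekhb1, Aldoc, a glycolytic enzyme of astrocytes, Sparcl1, a secreted protein of astrocytes, Cpe, a peptide-processing enzyme, and Pcsk1n, a prohormone convertase inhibitor. Aldoc was at 28.8, 2196, 10.5, 36.8 and 443 CPM. Highest in Vehicle 5 were Enpp2, Clic6, Aplp1, Col9a3, Ace and Clu. Ace, the angiotensin-converting enzyme, was at 6.31 to 11.8 CPM in Vehicle 1 to 4 and 926 in Vehicle 5. Without Vehicle 5, Enpp2, Clic6, Col9a3 and Ace had SDs of 0.34 to 0.76, and Mbp, Mobp, Aldoc and Plekhb1 still had SDs of 3.44 to 3.85.

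The lists of cell types differed in spread. Of the 26 microglia markers of mean CPM at least 20, 5 were variable and 2 stable over the 5 libraries, beside 15.2 and 18.5% of all genes, and without Vehicle 5 none were variable and 16 stable, beside 3.20 and 66.7%. The median SD of these 26 was 0.68 over the 5 libraries and 0.24 without Vehicle 5, against 0.49 and 0.19 over all genes. Of 12 monocyte and neutrophil markers, 11 were variable with Vehicle 5 and 11 without it, with a median SD of 1.92 and 1.33. All 7 choroid plexus markers above the limit were variable over the 5 libraries, and without Vehicle 5 only 3 of them reached the limit and none was variable. The 4 endothelial markers above the limit had a median SD of 0.67, with 1 variable, and none of the 3 border macrophage markers was variable, with a median SD of 0.86. Of 33 proteasome genes, 11 were stable and 1 variable over the 5 libraries, and 29 were stable without Vehicle 5. Without it, 6 of 79 genes with an oxidative phosphorylation symbol were stable. Elane, the elastase of neutrophil granules, named after its values were seen, was at 396, 129, 28.7, 22.2 and 16.0 CPM in Vehicle 1 to 5.

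Genes often used to normalise quantitative PCR had no lower spread as a list than other genes. Of the 28 on the list, 26 had a mean CPM of at least 20, 5 of them were stable over the 5 libraries and 4 were variable, beside 18.5 and 15.2% of all genes, so the shares were near those of all genes, and their median SD was 0.52 (0.22 without Vehicle 5). Tbp, the TATA-binding protein, was at 28.6, 27.3, 27.3, 24.2 and 27.2 CPM (SD of log2 0.13). Hsp90ab1, Rplp0 and Hprt had SDs of 0.21, and Ppia 0.26. Actb was at 16078, 11465, 14914, 11771 and 3066 CPM (0.93), and Gapdh at 930.3, 1217, 818, 991 and 2348 CPM (0.66), with Vehicle 5 the lowest for Actb and the highest for Gapdh. Pgk1, B2m, Atp5b and Sdha had SDs of 1.05 to 1.23. Without Vehicle 5, 18 of the 26 were stable and none were variable, beside 66.7 and 3.20% of all genes, and Tuba1a (0.54), Pgk1 (0.51), Rpl13a (0.46) and Cyc1 (0.46) had the widest spread. Polr2a, Eif4a2, Eef1a1, Gusb, Ywhaz, Rpl27, Canx, Alas1, Rps29 and Eef2 lay between 0.27 and 0.98 over the 5 libraries, Tfrc was at 9.37 ± 1.10 CPM (9.08 ± 1.04 without Vehicle 5), under the limit, and Rps18 was at 0.

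**Figure D4:**
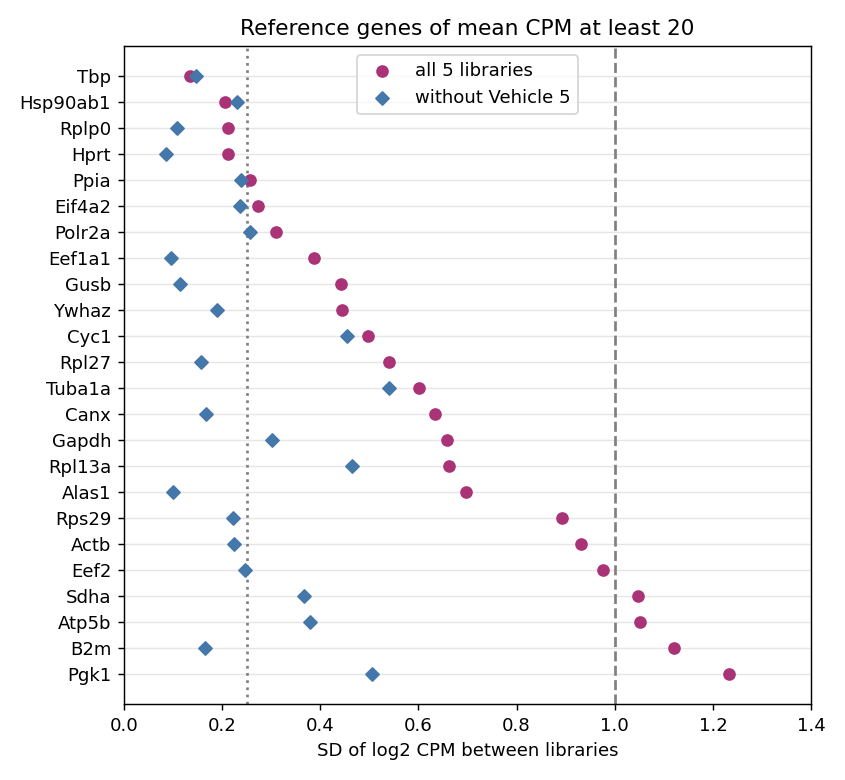
SD of log2 CPM between libraries for 24 of the 26 reference genes of mean CPM at least 20, over all 5 Vehicle libraries (circles) and without Vehicle 5 (diamonds), with a dotted line at 0.25 and a dashed line at 1. The circles run from Tbp (0.13) to Pgk1 (1.23), and without Vehicle 5 no gene is above 0.54.

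Gene length moved with the deviation of Vehicle 5. Its median difference in log2 CPM from the median library was -1.19 for the 400 genes under 1000 bases, -0.23 for 1000 to 2000 bases, 0.40 for 2000 to 3000, 0.85 for 3000 to 5000 and 0.67 over 5000. The other libraries lay between -0.13 and 0.34 in every class, with Vehicle 2 at 0.34 for the shortest genes. Genes under 1000 bases, such as Cst3, Ftl1, Tmsb4x and Tyrobp, held 14.5 to 17.6% of the counts in Vehicle 1 to 4 and 3.93% in Vehicle 5. The mean exonic length behind a fragment was 3418 to 3588 bases in the former and 4451 in the latter. Over the 7288 genes, Spearman's rho between length and deviation was 0.29 in Vehicle 5 and -0.41 in Vehicle 2, a description across genes. The share of length in the levels of single genes was not tested, and it cannot be told apart here from the change in the makeup of the library.

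**Figure D5:**
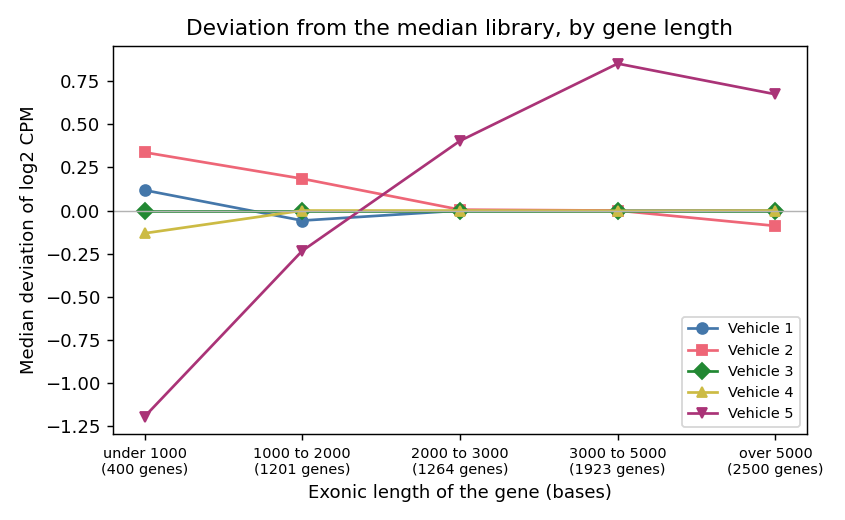
Median deviation of log2 CPM from the median library for genes of mean CPM at least 20 in 5 classes of exonic length, with 1 line for each Vehicle library. Vehicle 5 runs from -1.19 under 1000 bases to 0.85 at 3000 to 5000 bases, and the others stay between -0.13 and 0.34.

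Sex was the only label beside the mouse number that differed among the vehicle mice, with 2 males and 3 females. No gene was called: of 26979 genes tested with edgeR's quasi-likelihood test at a Benjamini-Hochberg adjusted p of 0.05, 0 (percent called 0) passed, 1196 had an unadjusted p under 0.05, and the smallest adjusted p was 0.789. Limma-voom called 0 genes, and DESeq2 called 36, of which 8 were higher and 28 lower in females. Even the Y-linked genes, absent in the females, did not pass, with log2 differences of -11.53 ± 0.72 for Ddx3y and -12.38 ± 0.74 for Eif2s3y (SE, edgeR adjusted p = 0.789 for both), which are fitted against counts of 0 and depend on the prior count. Without Vehicle 5, 2 genes were called, Eif2s3y and Ddx3y, both lower in females. Without Vehicle 2 and Vehicle 5, with Vehicle 1 as the only male, assumed to vary like the others, 1203 genes were called, and the comparison then sets 1 male, the library with the highest neutrophil markers, against 2 females.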

How the data were processed

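RNA was measured in CD11b-selected brain cells of 5 vehicle-gavaged mice, 1 library each. Per the methods and file headers, the authors trimmed the paired reads, aligned them with STAR to GRCm38 and made the deposited counts with featureCounts (version 1.6.3 in the file headers): raw fragments per RefSeq gene, without strand, unique alignments only, with no normalization. The exonic length beside each count was used for TPM. From the counts, CPM, TPM, ranks and shares were computed over 46152 genes, 46029 of which matched RefSeq (GRCm38.p6) for class and position. Columns of other samples used numbered 0.

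Depth was 12550418 to 20854218 assigned fragments, so that 3 fragments, the limit a count of 0 allows, are 0.144 to 0.239 CPM. Such floors cover counting error only. Spread was the SD of log2 CPM with TMM factors and a prior count of 2, for genes of mean CPM at least 20. Males and females were compared with edgeR 4.0.16 (quasi-likelihood, genes over 1 CPM in at least 2 libraries, Benjamini-Hochberg adjusted p under 0.05), with limma 3.58.1 and DESeq2 1.42.0 as alternatives, in R 4.3.3. Spread, normalization and the sex test were tested on simulated data. Pairs of libraries differed by 6.86 to 368 chi-square units per gene, so none was a second deposit of another. The sex test set the difference between males and females against the spread between libraries. With 1 library a mouse, differences between mice and between preparations cannot be told apart in that spread.

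Genes were named by rule: the 20 of highest mean CPM and of highest mean TPM, the 15 most variable and 10 most stable of mean CPM at least 100, and members of 31 lists. The lists and rules were chosen with earlier results of these data known. Some genes are not reported here singly and stay in sums and counts. The alternatives were other scalings, priors, limits and thinning, and leaving out libraries. The libraries of drug-treated mice were left out, since no contrast with them was made here.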

Additional observations from a re-analysis of the deposited data

Results flagged for a closer look

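In each of 88 measures the library farthest out was set against the others by Dixon's ratio, the gap to its neighbour over the whole range of the 5 libraries, and 32 measures passed the critical value of 0.71. Chance alone flags about 1 in 20 such groups, but this is no yardstick here: many of the genes among the measures were chosen for a high spread or entered through 1 library, which fixes their flag, and the measures of a library share 1 total. Vehicle 5 was the library apart in 22 measures, Vehicle 2 in 8 and Vehicle 1 in 2.

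Vehicle 5 was low in the share of counts on its own 20 leading genes (12.7%), in the summed CPM of microglia markers (34129.7) and of histones (2736), and in the CPM of Cst3 (4778), Ftl1 (3039), C1qb (1944), Ctss (1613) and Itm2b (1817). It was high in the number of genes that hold 50% of the counts (986) and in the mean exonic length per fragment (4451 bases). It was also high in the summed CPM of markers of lymphocytes (472), erythroid cells (1831) and choroid plexus cells (25106). The sums of endothelial (701), mural (144) and ependymal cells (288) were high too, but not all their members were. Of the mural sum, Vtn held 74.4 CPM, and Pdgfrb and Kcnj8 were also highest in Vehicle 5. Myh11, Abcc9, Cspg4, Rgs5 and Tagln were lowest there. Single genes high in Vehicle 5 were Enpp2 (34463 CPM), Clic6 (1259.9 CPM), Aplp1 (1270.5 CPM), Col9a3 (1139.6 CPM), Ace (926 CPM) and Clu (3062 CPM).

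Vehicle 2 was high in the share of counts on ribosomal RNA genes (0.377%), in the summed CPM of oligodendrocyte markers (15756) and of the mitochondrially encoded genes measured (3764), and in the CPM of Mbp (12816), Mobp (2263), Plekhb1 (710.4), Aldoc (2196) and Pcsk1n (918). Vehicle 1 was high in the summed CPM of monocyte and neutrophil markers (29263) and in S100a9 (7738 CPM).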

How the results depend on the processing

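No paired analysis was possible because male and female mice share no replicate number. The share of counts in the 20 most abundant genes was 29.0% on the TPM scale, and 13767 genes were detected at 5 CPM in place of 24809 at 1 CPM. Leaving out 1 library at a time gave shares of 19.2 to 23.0%, 22958 to 24216 detected genes, 14 to 15 genes in both lists of 20, 209 to 1497 variable genes, 1201 to 4356 stable genes and 0 to 2 genes called between the sexes, and the extremes of 209, 4356 and 2 came without Vehicle 5. Without Vehicle 2 and Vehicle 5 there were 66 variable, 5435 stable and 1203 sex-called genes. A limit of 5 CPM in place of 20 gave 2382 variable and 2228 stable genes, and 100 CPM gave 231 and 281, over more and over fewer genes. DESeq2 called 36 genes between the sexes, and the cause was not tested. Upper quartile factors kept the number of stable genes at 1393, of which 352 were among the 1348, and put the 10 most stable genes at SDs of 0.27 to 0.36. Ddx3x, not called in either, went from a log2 difference between females and males of 0.87 to -0.076 without Vehicle 2 and Vehicle 5. Of the spreads of named genes under alternatives 276 stayed and 24 moved. Mean sums of lists followed single libraries: monocytes and neutrophils went from 8852 to 3749.7 CPM without Vehicle 1, oligodendrocytes from 4069 to 1148, astrocytes from 1074 to 595, neurons from 254 to 146 and mitochondrially encoded genes from 1294 to 676 without Vehicle 2, and choroid plexus cells from 6443 to 1777, erythroid cells from 437 to 89.2, endothelial cells from 266 to 158 and ependymal cells from 79.6 to 27.6 without Vehicle 5. Depth limits single genes near 0.239 CPM.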
